A study of Mus musculus with 12 samples.

Results

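RNA of the frontal cortex was compared between male C57BL/6 mice with and without the RNA editing enzyme ADAR2, and the genes described here sense double-stranded RNA, carry the interferon signal or are induced by it. The list of 39 genes was drawn up by function, with earlier results on the same libraries known. Of the 39 genes, 35 were found among the 15191 genes of the authors' deposited table. Of these, 34 were found by their symbol and Ifi27 by its older symbol Ifi27l1. Oas1b, Oas2, Zbp1 and Trex1 were not analysed here at the level of the gene. The 35 genes comprised 8 sensors and their close partners, 11 receptor and signalling genes, and 16 induced effectors.

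The study measured total RNA after removal of ribosomal RNA in 12 libraries, 6 of the genotype Adar2-/- Gria2R/R and 6 of the genotype Adar2+/+ Gria2R/R, the latter from litter mates. All mice were thus homozygous for Gria2R, an allele whose DNA already spells the arginine that ADAR2 normally writes into the mRNA of this AMPA receptor subunit. The labels give no age. The gene table compares 2 conditions headed only A and B and does not say which is the knockout, so every gene's difference is written as log2 of A over B and names no genotype. Values per mouse were not used here. Each gene therefore has 1 mean normalized read count over both conditions and 1 difference, the spread between mice enters only through the authors' p-values, and depth per library is unknown. Adarb1, which encodes ADAR2, was 4.62-fold higher in B in the authors' deposited table (adjusted p = 3.06e-126). By this value A would be the knockout and B the control, though no label states it.

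Cells recognise long double-stranded RNA as a sign of viral infection. The helicases RIG-I and MDA5 bind it in the cytoplasm and signal through the adaptor MAVS to make interferon, which acts through its receptor, the kinases JAK1 and TYK2, and STAT and IRF factors to induce a large set of antiviral genes. Editing by ADAR1, the other active mammalian A-to-I enzyme, marks the cell's own double-stranded RNA, and mice that lack ADAR1 editing are known for a strong interferon response that depends on MDA5 and MAVS. ADAR2 is best known for recoding mRNAs of neuronal receptors and channels. In bulk cortex, fewer cells of a type and less RNA per cell cannot be told apart.

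None of the 35 genes passed an adjusted p under 0.05 in the authors' deposited table, where 3 of 15191 genes (0.0197%) did. An unadjusted p under 0.05 was found for 3 members, Ifit3, Ifit1 and Oas1a, which is 8.57% of the list, against 1.86% of all genes. All 3 were higher in A, and 0.843% of all genes had such a p together with a higher level in A. By direction alone, 28 of the 35 members (80%) were above 0, against 52.9% of all genes. The median log2 difference of the members was 0.12, beside 0.01 over all genes, and 0.061 for the 23 members with a mean count of at least 100. The members ranged from -0.10 for Irf9 to 0.78 for Oas1a, so that the largest ratio between the conditions was 1.72-fold. These counts describe the list and do not test it, since its genes were chosen with earlier results on the same libraries known.

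**Figure D1:**
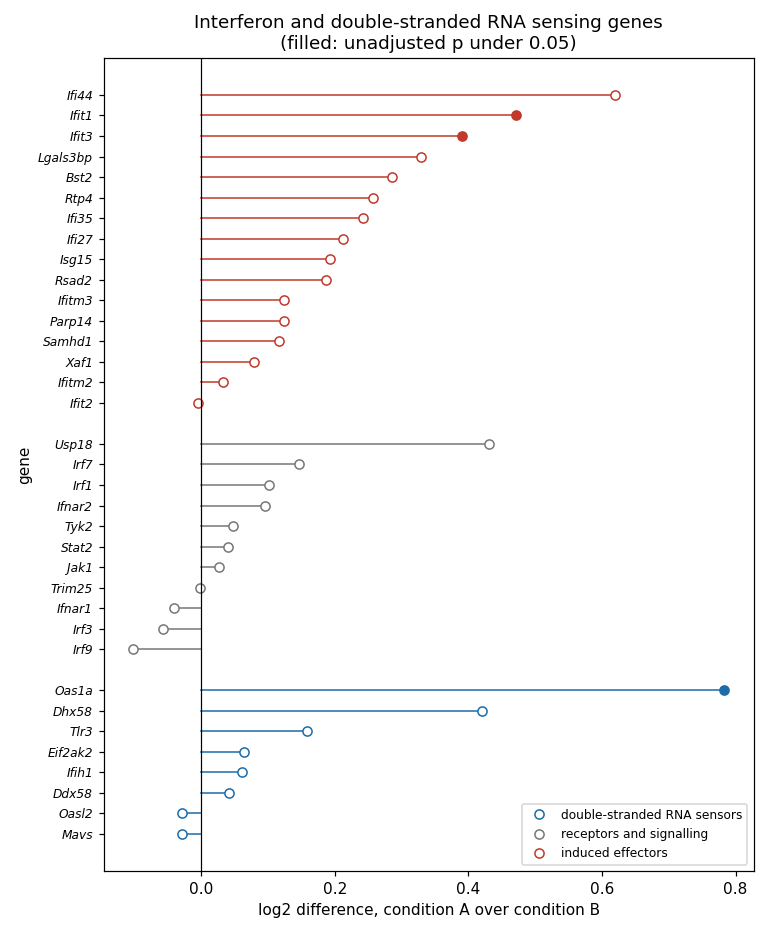
Log2 difference of condition A over condition B (horizontal axis) for each of the 35 listed genes (vertical axis), grouped into double-stranded RNA sensors (blue), receptors and signalling genes (grey) and induced effectors (red). Filled points are the 3 genes with an unadjusted p under 0.05, and 15 of the 16 effectors lie to the right of 0.

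Among the sensors, Ifih1 encodes MDA5, the sensor of long double-stranded RNA that the loss of ADAR1 editing is known to engage. It had a log2 difference of 0.06 at a mean count of 301 in the authors' deposited table (p = 0.386). Ddx58 encodes RIG-I, which binds the ends of short double-stranded RNA, and its log2 difference was 0.04 at a mean count of 235 in the authors' deposited table (p = 0.993). Mavs, the mitochondrial adaptor of both, was at -0.03 with a mean count of 132 in the authors' deposited table (p = 0.863). The ratios between the conditions were thus 1.04-fold, 1.03-fold and, in the other direction, 1.02-fold for these 3 genes.

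Dhx58 encodes LGP2, a helicase of the same family that modulates the other sensors. Its log2 difference was 0.42 at a mean count of 31.9 in the authors' deposited table (p = 0.108). Of the 3 helicases it had the largest difference and the lowest mean count. Tlr3, the endosomal receptor for double-stranded RNA, was at 0.16 with a mean count of 222 in the authors' deposited table (p = 0.604). Eif2ak2 encodes PKR, the kinase that halts translation on binding double-stranded RNA, and was at 0.06 with a mean count of 347 in the authors' deposited table (p = 0.869).

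Oligoadenylate synthetases bind double-stranded RNA and make the messenger that activates RNase L. Oas1a was 1.72-fold higher in A in the authors' deposited table, with an unadjusted p of 0.0296 and an adjusted p of 1. This was the largest difference in the list, at a mean count of 25.5. Oasl2, a related gene, had a log2 difference of -0.03 at a mean count of 74.0 in the authors' deposited table. Oas1c, a further gene of the family outside the list, was at 0.05 in the authors' deposited table (p = 0.746). Oas1a has close copies in its gene cluster, and the sources used here do not say how reads shared between copies were counted. Over the 8 sensors 6 were above 0, with a median of 0.06.

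The receptor and signalling genes included the subunits of the type I interferon receptor. Ifnar1 had a log2 difference of -0.04 at a mean count of 1633 in the authors' deposited table, and Ifnar2 had one of 0.10 at 452. The kinases bound to the receptor, Jak1 and Tyk2, were at 0.03 and 0.05 in the authors' deposited table, with mean counts of 7543 and 388. None of the 4 had an unadjusted p under 0.05, and the smallest, that of Ifnar2, was 0.321. All 4 lay within 0.1 of 0 on the log2 scale.

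The transcription factors were mixed in sign. Stat2 and Irf9 encode parts of the complex that binds interferon-stimulated response elements. Stat2 was at 0.04 (p = 0.852) and Irf9 at -0.10 (p = 0.425) in the authors' deposited table. Irf3, the factor that the sensors activate without new synthesis, was at -0.06 in the authors' deposited table (p = 0.735). Irf7, which interferon itself induces, was at 0.15 with a mean count of 56.7 in the authors' deposited table (p = 0.416), and Irf1 was at 0.10 (p = 0.393). Of the 4 Irf genes, 2 were above 0 and 2 below.

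Trim25 encodes a ubiquitin ligase that acts with RIG-I, and its ratio of A over B was 0.998 in the authors' deposited table (p = 0.936). Usp18 encodes an interferon-induced protease that removes ISG15 and dampens the receptor, and it was at 0.43 with a mean count of 40.4 in the authors' deposited table (p = 0.212). Usp18 had the largest difference and the lowest mean count of the 11 receptor and signalling genes, whose median was 0.04. Of these 11 genes 7 were above 0 and none had an unadjusted p under 0.05.

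A log2 difference above 0.1 was found for 2752 of all 15191 genes and for 13 of the 16 induced effectors. Of these effectors, 15 were above 0. Their median log2 difference was 0.20, beside 0.06 for the sensors and 0.04 for the receptor and signalling genes. Among genes with a mean count of at least 100 these medians were 0.12, 0.061 and 0.026. The groups were set by role, and Usp18 and Irf7 among the signalling genes are also induced by interferon. Whether the groups differ was not tested. Their mean counts differed as well, with medians of 133 for the effectors, 177 for the sensors and 388 for the receptor and signalling genes. Over all genes the median mean count was 624, so the 2752 genes above 0.1 are not matched to the effectors by count.

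The Ifit genes encode proteins that bind viral RNA and block its translation, and they lie together on chromosome 19. Ifit3 was 1.31-fold higher in A, a log2 difference of 0.39, at a mean count of 334 in the authors' deposited table. Its p of 2.71e-04 stood at place 12 among all listed genes. Its adjusted p was 0.457 in the authors' deposited table, and 0.343 with Benjamini-Hochberg adjustment over the listed genes alone. Ifit1 was 1.39-fold higher in A, a log2 difference of 0.47, at a mean count of 143 in the authors' deposited table, with an unadjusted p of 0.0266 and an adjusted p of 1. Ifit2 had a ratio of A over B of 0.997 at a mean count of 603 in the authors' deposited table (p = 1). Ifit2, with the highest mean count of these 3 neighbours, thus had the smallest difference. Ifit3b, a close copy of Ifit3 that was chosen after its value was seen, was at 0.24 with a mean count of 174 in the authors' deposited table (p = 0.124). The assignment of reads shared by Ifit3 and Ifit3b is likewise not stated, so their values are uncertain.

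The promoters of these genes are shown because interferon acts on them through a short element. RefSeq promoters on the build GRCm38.p6, from 250 bases before to 50 after the start, were matched for 31 of the 39 genes. They were searched on both strands for GAAANNGAAA, a core of the interferon-stimulated response element. It was found for 12 of the 31 genes (38.7%) and for 1079 of all 27025 genes with a promoter (3.99%). By promoter, it was found in 3.44% of all 32851 of the same length. In Ifih1, Ddx58, Eif2ak2 and Ifitm3 all matches lay after the start. The last 160 bases before the start are printed below, 5′ to 3′ along the gene, for Ifit3, Ifit1 and Oas1a, the members with an unadjusted p under 0.05, and for Isg15, which held 3 overlapping matches. Capitals mark the matches, which read TTTCNNTTTC where they lie on the other strand. The deposited tables use another build, mm9, and these coordinates were joined to no value by position.

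Ifit3 (chr19:34583369-34583528, plus strand): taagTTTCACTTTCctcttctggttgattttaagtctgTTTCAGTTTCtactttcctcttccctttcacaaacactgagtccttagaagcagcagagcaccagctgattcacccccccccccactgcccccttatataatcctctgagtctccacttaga

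Ifit1 (chr19:34640729-34640888, plus strand): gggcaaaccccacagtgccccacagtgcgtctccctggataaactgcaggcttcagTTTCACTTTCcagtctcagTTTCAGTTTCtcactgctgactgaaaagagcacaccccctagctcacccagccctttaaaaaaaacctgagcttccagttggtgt

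Oas1a (chr5:120907526-120907685, minus strand): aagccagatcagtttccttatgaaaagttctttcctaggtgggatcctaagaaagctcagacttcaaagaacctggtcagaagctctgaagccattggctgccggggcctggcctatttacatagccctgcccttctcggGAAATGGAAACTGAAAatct

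Isg15 (chr4:156200819-156200978, minus strand): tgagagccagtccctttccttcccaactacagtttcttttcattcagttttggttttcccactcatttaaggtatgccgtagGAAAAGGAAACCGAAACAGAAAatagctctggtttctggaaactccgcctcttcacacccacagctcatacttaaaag

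Ifit3 and Ifit1 each held 2 separate matches on the other strand, and those of Oas1a and Isg15 overlapped one another on the gene's own strand. All 12 listed genes with a match had a log2 difference above 0, with a median of 0.16. Among the 18 listed genes whose promoters held no match 11 were above 0, with a median of 0.06. The listed genes Usp18, Dhx58, Rtp4, Ifi27 and Parp14 had no matched promoter and are in neither group. Their differences were 0.43, 0.42, 0.26, 0.21 and 0.12. The 3 genes with an unadjusted p under 0.05 were all among the 12. The median mean count was 165 for the 12 genes and 252 for the 18. Outside the interferon list, 53.2% of 357 listed genes with a match were above 0, with a median of 0.01. Of 9771 listed genes without a match, 54.1% were above 0. Whether the element has a part in the differences was not tested. Ifit2, Irf7 and Ifi44, which are also induced by interferon, had no match in their windows, which says only that these letters are not there.

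Isg15 encodes the ubiquitin-like protein that is attached to other proteins during the interferon response, and it is among the genes known to rise when ADAR1 editing is lost. Here its log2 difference was 0.19 at a mean count of 18.7 in the authors' deposited table (p = 0.605). Ifi44, another inducible gene, was 1.54-fold higher in A, a log2 difference of 0.62, at a mean count of 19.8 in the authors' deposited table (p = 0.062). Both genes had mean counts near the lowest in that table. Rsad2 encodes viperin, an enzyme that makes a chain-terminating nucleotide, and was at 0.19 with a mean count of 99.4 in the authors' deposited table (p = 0.289).

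Other effectors act on viruses at membranes. Bst2, which encodes tetherin, was at 0.29 with a mean count of 74.1 in the authors' deposited table (p = 0.0514). Ifitm3 and Ifitm2 encode proteins that block viral fusion, and their log2 differences were 0.12 (p = 0.631) and 0.03 (p = 0.732) in the authors' deposited table. Ifitm1, outside the list, was at 0.27 in the authors' deposited table (p = 0.228). Genes of the Ifitm family share sequence, so reads could be split between them.

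Of the remaining effectors, Ifi27, whose product resides in membranes of the nucleus and mitochondria, was at 0.21 with a mean count of 559 in the authors' deposited table (p = 0.0578). Lgals3bp, a secreted glycoprotein that binds galectin, was at 0.33 with a mean count of 187 in the authors' deposited table (p = 0.238). Rtp4, which encodes a chaperone for receptor traffic, and Ifi35 were at 0.26 (p = 0.348) and 0.24 (p = 0.123) in the authors' deposited table. Parp14, an ADP-ribosyltransferase gene, Samhd1, whose enzyme breaks down deoxynucleotides, and Xaf1, whose product antagonises an inhibitor of apoptosis, were at 0.12, 0.12 and 0.08 in the authors' deposited table. None of these 7 genes had an unadjusted p under 0.05.

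Differences spread more widely where counts were low, and the members were set beside genes of similar count. Below a mean count of 50, 80% of all 1852 listed genes lay between -0.41 and 0.35, and 48.7% were above 0. The 6 members in this range, Isg15, Ifi44, Oas1a, Dhx58, Usp18 and Rtp4, were all above 0, with a median of 0.43. From 300 to 1000 counts, 80% of all 4019 genes lay between -0.10 and 0.13, and 54.3% were above 0. The 10 members there, Ifit3, Ifit2, Ifi27, Ifih1 and Eif2ak2 among them, had a median of 0.06 with 8 above 0. Within its own range of counts, the difference of Ifit3 was above that of 99.5% of genes, and those of Ifit1 and Oas1a were above 99.0% and 99.1%. These 3 were picked by p-values of the same differences, so their high places add no support. Over all listed members the share ran from 18.6% for Irf9 to 99.5% for Ifit3. The sensor genes Ifih1 and Ddx58 were above 73.8% and 58.6% of the genes in their ranges.

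**Figure D2:**
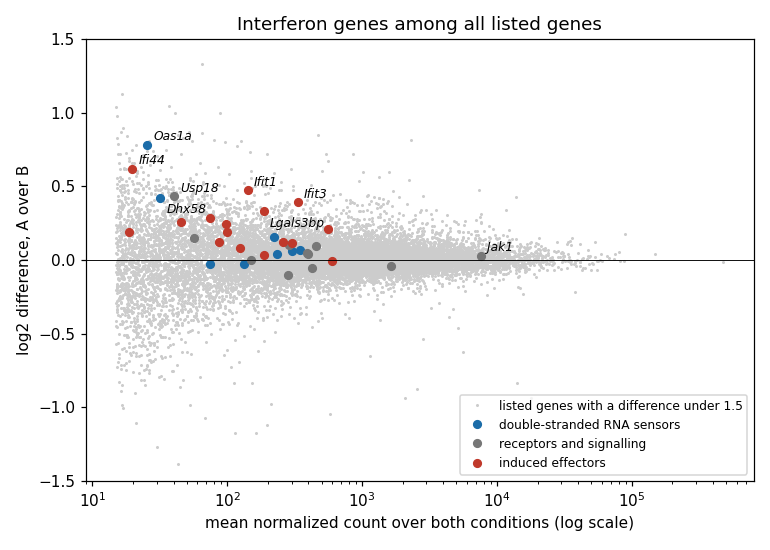
Log2 difference of condition A over B (vertical) against the mean normalized count over both conditions (horizontal, log scale) for all listed genes (light grey) and the interferon genes (coloured by role). The 20 genes with a difference of 1.5 or more in size are not drawn, the spread narrows as counts rise, and Ifit3 and Ifit1 stand near the upper edge at their counts while Jak1 lies at 0.03.

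Other genes of the pathway were taken from lists set by function, also with earlier results of these data known. The interferon ligands Ifnb1, Ifna2, Ifna4 and Ifng were not found among the listed genes, so no value was analysed here. Of 34 other induced genes, such as guanylate-binding proteins and immunity-related GTPases, 27 (79.4%) were above 0, with a median of 0.07, and none had an unadjusted p under 0.05. Their highest was Nlrc5, a regulator of MHC class I genes, at 0.45 with a mean count of 27.1 in the authors' deposited table (p = 0.445). Iigp1 and Slfn8 followed at 0.39 (p = 0.208) and 0.36 (p = 0.0993) in the authors' deposited table. Of 16 other receptor and signalling genes, 8 were above 0 and 8 below, with a median of -0.01.

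Of those 16, 2 had an unadjusted p under 0.05, in opposite directions, and neither passed after adjustment. Ikbke, which encodes a kinase that activates IRF3 and IRF7, was 1.69-fold higher in B at a mean count of 39.2 in the authors' deposited table (p = 0.0104). Tlr7, the endosomal receptor for single-stranded RNA, was 1.27-fold higher in A at a mean count of 123 in the authors' deposited table (p = 0.037). Of 15 genes that handle double-stranded or inosine-containing RNA, Adarb1 was the only one to pass. Adar, which encodes ADAR1 and is itself inducible by interferon, was at 0.02 with a mean count of 4333 in the authors' deposited table (p = 0.981).

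Many of these genes are expressed in microglia, the resident macrophages of the brain, and in vessel cells, and markers of those cells were set beside them. Of 14 microglia markers 12 were above 0, with a range from -0.03 for Tmem119 to 0.28 for Aif1 and a median of 0.12, equal at 2 decimals to that of the interferon list. None had an unadjusted p under 0.05, and their mean counts ran from 103 to 3582. With a mean count of at least 100, the interferon list had a lower median of 0.061. The part of microglia in the interferon values was not tested. Endothelial markers had 5 of 10 above 0, with a median of 0.01. The highest of them, Ly6a, is itself inducible by interferon and was at 0.22 in the authors' deposited table (p = 0.0464). Astrocyte and neuron markers had medians of 0.10 and 0.11, with 5 of 7 and 5 of 6 above 0. Oligodendrocyte markers had a median of 0.01. The 6 blood markers had a median of -0.01 and the widest range of these lists, from -1.39 to 0.09. The neutrophil genes S100a9 and S100a8 were at -1.39 (p = 0.242) and -1.27 (p = 0.342) in the authors' deposited table, with mean counts of 43.1 and 29.9, and the other 4, haemoglobin genes among them, lay between -0.06 and 0.09. The part of blood cells in the interferon values was not tested. The neuron and astrocyte markers of this tissue were all detected, with mean counts of 2365 or more, except Rbfox3, which was not analysed here.

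**Figure D3:**
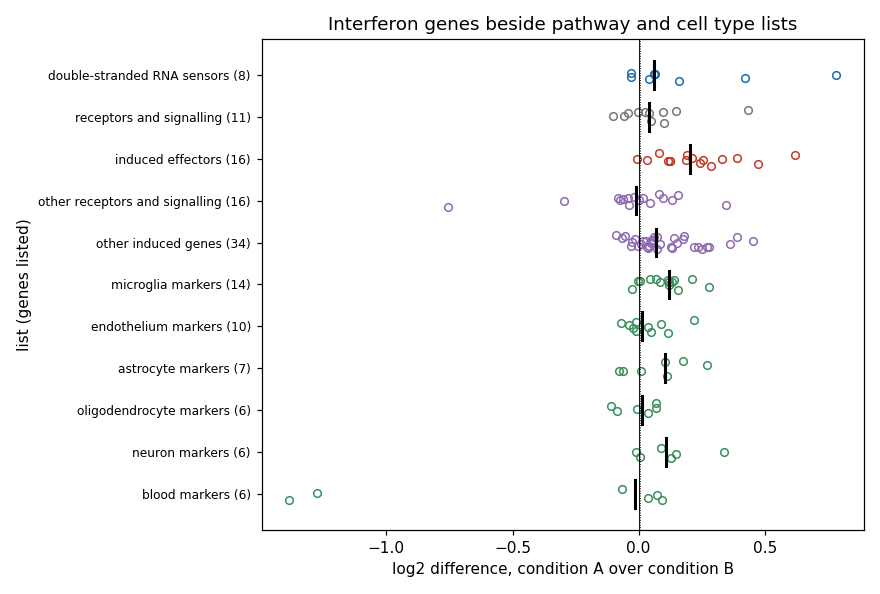
Log2 difference of condition A over B (horizontal) for each listed gene of the interferon role groups (blue, grey, red), 2 further pathway lists (purple) and 6 lists of cell type markers (green), with the number of genes in brackets. Each point is a gene, the black bar is the list's median and the dotted line is the median of all genes; effectors have a median of 0.20 and microglia markers one of 0.12, and the leftmost points are the blood markers S100a9 and S100a8, followed by Ikbke at -0.76.

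Exon usage was read from the exon table, which names its genotypes and is given here as knockout over control. It divides genes into bins, and 158 bins belonged to 27 of the 39 genes alone. No bin passed an adjusted p under 0.05 in the authors' deposited table, where 0.00738% of all bins with a p did. Of the 158, 1 had an unadjusted p under 0.05 (0.633%), against 1.67% of all bins. It was bin E006 of Tyk2, with a mean count of 26.6, a log2 value of 0.45 and p = 0.0494 in the authors' deposited table. By sign, 46.8% of the bins were above 0, against 50.3% of all bins, and their median was -0.01.

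Among the sensors, Ifih1 had 7 bins between -0.36 and 0.35. The smallest p among the 18 sensor bins, 0.116, was that of its bin E008 in the authors' deposited table. Jak1 had 30 bins between -0.11 and 0.08, and Ifnar1 had 16 between -0.19 and 0.17. Irf3 had 13 bins, the lowest at -0.44 with a mean count of 22.4 in the authors' deposited table (p = 0.0894). Ifit1 and Ifit3 each had 1 listed bin, at -0.04 (p = 0.0619) and -0.03 (p = 0.306) in the authors' deposited table. A bin's value is its usage relative to the rest of its gene, so these single bins say little of the gene's level. Ifit2 had 4 bins between -0.06 and 0.16, and Ifi27 had 11 between -0.12 and 0.12.

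**Figure D4:**
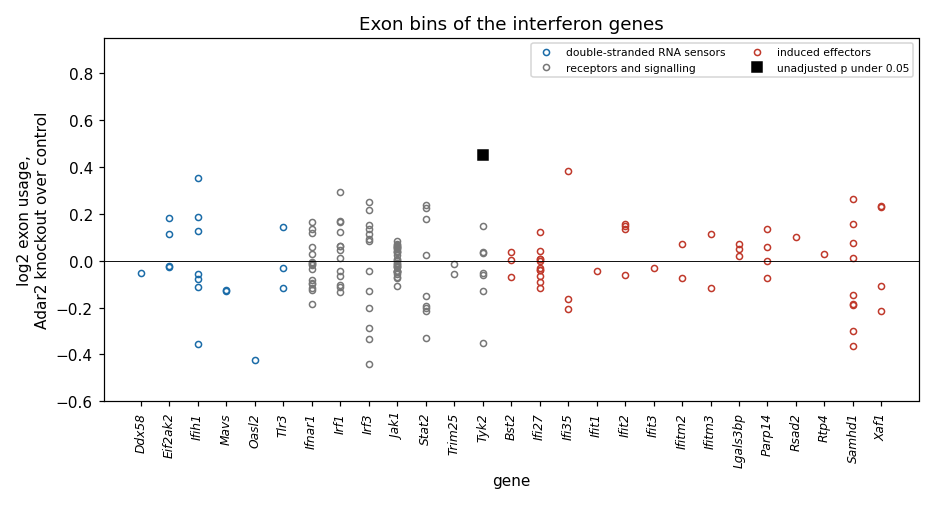
Log2 exon usage in Adar2 knockout over control (vertical) for each of the 158 exon bins of 27 interferon genes (horizontal), coloured by role. The black square is bin E006 of Tyk2, the 1 bin with an unadjusted p under 0.05, and the 30 bins of Jak1 lie between -0.11 and 0.08.

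Bins of 3 more members were counted together with an overlapping gene and cannot be assigned to either. They were 26 bins of Irf9 with Rnf31, 22 of Ifnar2 with Il10rb and 22 of Trex1 with Atrip. Of these 70 bins, none passed and 2 had an unadjusted p under 0.05, both in the unit of Irf9 and Rnf31, at -0.42 (p = 0.0247) and 0.45 (p = 0.0466) in the authors' deposited table. The 21 bins of Adar lay between -0.18 and 0.12, none with an unadjusted p under 0.05.

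The editing table listed 143 sites in 95 genes, and 0 of them lay in a gene of the interferon list or of the wider pathway lists. It therefore gives no level of editing for any sensor or effector, and editing of their transcripts was not analysed here.

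In mice without ADAR1 editing, sensors and effectors are known to rise strongly together. Here none of the 35 listed genes passed after adjustment. Ratios of A over B ran from 0.980 for Mavs to 1.72 for Oas1a among the 8 sensors, with Ifih1 at 1.04, Tlr3 at 1.12 and Dhx58 at 1.34 in the authors' deposited table. They ran from 0.997 for Ifit2 to 1.54 for Ifi44 among the 16 effectors in the authors' deposited table. No ADAR1-deficient sample was part of these data, so this contrast was not tested.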

How the data were processed

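Total RNA of frontal cortex from 12 libraries was sequenced after removal of ribosomal RNA, per the labels' protocols. Tools listed in the submitters' processing notes, with no roles, were DESeq, HTSeq, SAMtools 01.19.0, Bowtie2 2.02.0 and TopHat2 2.0.6, and the build was mm9. Of the 3 tables deposited by the authors, the gene table holds a mean normalized count, a signal over both conditions, the deposited ratio of B over A and its log2 value, and p-values, per the file headers. A further 2 columns, with the level in each condition, were left out, as no label ties them to a genotype. The exon table holds a deposited mean signal, a log2 value of control over knockout, p-values and a dispersion score per bin. The editing table holds the deposited percent edited and another column of positions. The lowest listed mean count was 15.0 for genes and 20.0 for bins.

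No test was fitted here: the authors' p-values were used, called at an adjusted p under 0.05, and log2 signs were turned to A over B and to knockout over control. Benjamini-Hochberg adjustment was tested on simulated data. Symbols and identifiers were matched through RefSeq and GENCODE tables, and all 39 genes had an Ensembl identifier. Every member was named, and of the wider lists those with an unadjusted p under 0.05, Adar, Adarb1 and, after their values were seen, Nlrc5, Iigp1, Slfn8, S100a8, S100a9, Oas1c, Ifitm1 and Ifit3b. The members and lists were chosen with earlier results of these data known. Python 3.11.15 and pandas 2.3.3 were used.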

Additional observations from a re-analysis of the deposited data

How the results depend on the processing

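The count of 0 called genes held at an adjusted p under 0.1, with adjustment over the listed genes alone and with a mean count of at least 100, and the count of 0 called bins held under the matching 3 alternatives. With a mean count of at least 100, which left 23 genes, 17 were above 0. Of all genes, 54%, 54.3% and 52.7% were above 0 at counts of 100 to 300, 300 to 1000 and 1000 or more. With the same minimum, the median log2 difference was 0.061 for the list, 0.026 for receptor and signalling genes and 0.12 for effectors. Without Ifit3, Oas1a, Ifitm2 and Ifitm3, which have close copies, 1 gene kept an unadjusted p under 0.05, Ifit1, and the medians were 0.10 for the list and 0.21 for effectors. Less the median of all genes, the list was at 0.11 and receptor and signalling genes at 0.033. With exact symbols only, an alternative added after the data were seen, the list was at 0.11 and effectors at 0.19. With a mean count of at least 50, 0 bins had an unadjusted p under 0.05. The other 16 values kept their count within 1.5 times or their median at 2 decimals, and no median changed sign. The planned pseudocount was not run, since it needs the means per condition, which were not used. No paired analysis was possible because the tables give no value for a single mouse. Depth per library is unknown, so no limit can be put on differences of genes such as Isg15, with a mean count of 18.7.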

Other observations

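Promoters with the letters GAAANNGAAA were also counted outside the interferon list. Of 357 other listed genes with a match, 190 (53.2%) were above 0, with a median log2 difference of 0.01, and 7 (1.96%) had an unadjusted p under 0.05. Of 9771 listed genes whose promoter held no match, 54.1% were above 0, with a median of 0.01, and 1.66% had an unadjusted p under 0.05. These shares are a description over genes, which are not replicates.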
